A study of Heliocidaris erythrogramma with 7 samples.

Results

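The step from 12 to 16 hours post-fertilization (hpf) was followed in embryos of *Heliocidaris erythrogramma* (*He*) by comparing 2 of 7 single-cell RNA-seq libraries. The cells used had over 200 but under 4000 detected genes and under 10000 unique molecular identifiers (UMIs, each marking 1 captured transcript). These were 486 cells at 16 hpf and 4706 at 12 hpf, of 23156 in the 7 libraries. UMIs were summed over the cells of each library and scaled to CPM, the count per 1000000 UMIs of that library. Of the 38707 features in the files, 9401 had at least 50 UMIs over both libraries and were compared, and 7923 of these carried a gene name. The 7 libraries are of 1 Australian sea urchin species, with no mutant and no treatment, sampled at 6, 9, 12, 16, 20, 24 and 30 hpf. GEO labels the tissue of every sample as larvae. Cells were dissociated, fixed in methanol and captured with a 10x Genomics 3' kit, and each time point is 1 library, with no stated number of parents or cultures. Because no time point has a replicate, no test between time points was possible. Every interval given is an exact 95% interval that covers counting error only. The next library, at 20 hpf with 3078 cells, was used to see which differences were still there 4 h later.

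*He* develops without feeding, from a large egg that is rich in maternal stores. In sea urchins, a set of early histone genes is used during the fast cleavage divisions and gives way to late histone genes. In the hours around gastrulation, the mesoderm parts into cells such as pigment cells and the immune cells of the blastocoel, and the ectoderm is divided into territories by Nodal, BMP, Wnt and Notch signals. In sums over a whole library, fewer cells of a type and less RNA per cell cannot be told apart.

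Depth set the limits of the comparison. The 16 hpf library held 936734 UMIs and the 12 hpf library 8121845, so 1 UMI was worth 1.07 CPM at 16 hpf and 0.123 CPM at 12 hpf. Cells were about equally deep, with a median of 1861.5 UMIs at 16 hpf and 1663 at 12 hpf. A feature seen at 16 hpf alone had to reach 53.4 CPM to be compared, while one seen at 12 hpf alone had to reach 6.16 CPM, so weak genes that appear at 16 hpf are missed more often than weak genes that disappear. Of the compared features, 1598 had fewer than 10 UMIs at 16 hpf and 23 had none. The 16 and 12 hpf libraries shared 3 cell barcodes.

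Relative to 12 hpf, 1297 features were at least 2-fold higher at 16 hpf (13.8%) and 1028 were at least 2-fold lower (10.9%). The median feature had a log2 ratio of 0.08. For 434 features (4.62%) the whole counting interval lay above a 2-fold gain, and for 205 (2.18%) it lay below a 2-fold loss. These shares of 13.8% higher and 10.9% lower are the background for the counts of each gene list. At least 4-fold, 171 features (1.82%) were higher and 164 (1.74%) lower. The split depends on the scaling: with size factors from the median of ratios over all features, where the median ratio moved by -0.36, 644 features were higher and 1861 lower, and with TMM factors, where it moved by -0.33, 689 were higher and 1777 lower. With either kind of factor computed over the features with at least 50 UMIs, the median moved by -0.08 and the counts were 1106 and 1113 higher against 1197 and 1185 lower.

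**Figure D1:**
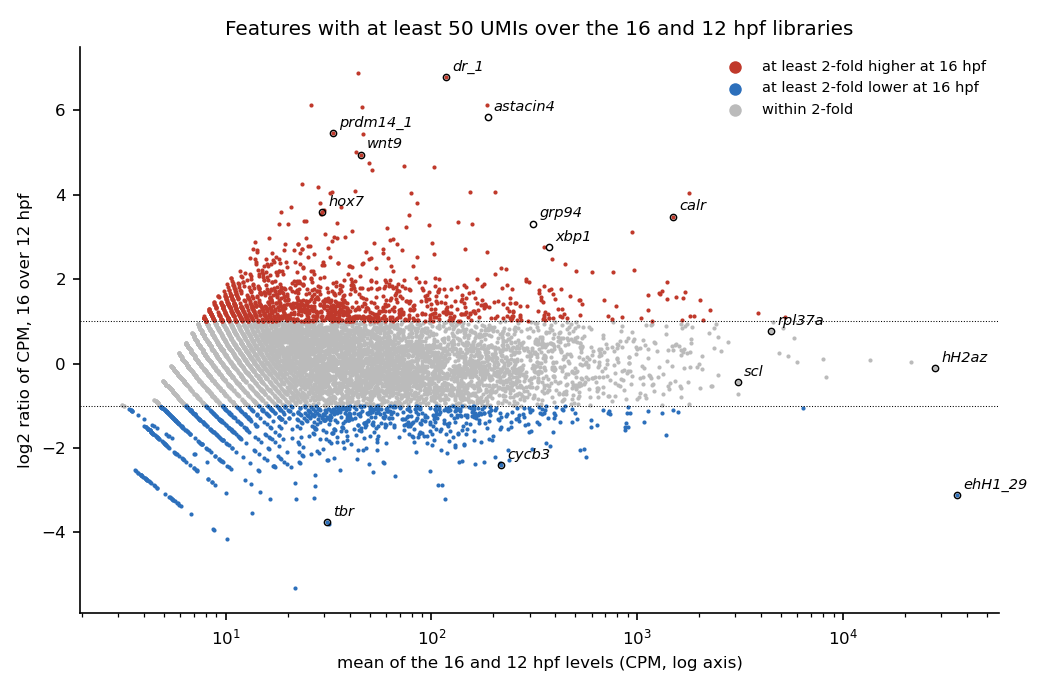
Each dot is 1 of the 9401 compared features, with the mean CPM of the 16 and 12 hpf libraries on a log axis and the log2 ratio of 16 over 12 hpf on the other axis. Circles mark named genes, with features that share a name summed. Most dots lie within 2-fold, a tail of genes such as *dr_1* and *astacin4* lies far above, and *ehH1_29* is the most abundant gene far below.

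Most of these differences were still present at 20 hpf. Of the 1297 higher features, 868 (66.9%) were also at least 2-fold above 12 hpf at 20 hpf, against 15% of all features. Of the 1028 lower features, 662 (64.4%) were also at least 2-fold below, against 12.8% of all features. Among those with the whole interval past 2-fold, 382 of 434 (88.0%) and 192 of 205 (93.7%) were held. The ratios of 16 and of 20 hpf to 12 hpf share the 12 hpf library, so an odd value at 12 hpf would enter both. A feature past 2-fold at 16 hpf was on the other side of 2-fold at 20 hpf in 5 cases among the higher and 4 among the lower.

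The gains at 16 hpf were led mostly by features that were nearly silent at 12 hpf. Of 12 named features chosen for the highest lower bound of the ratio, *dr_1* came first, with 2.09, 233 and 492 CPM at 12, 16 and 20 hpf. Its ratio of 16 over 12 hpf was 111 (67.9 to 194), from 218 UMIs in 103 cells at 16 hpf and 17 UMIs in 10 cells at 12 hpf. *tsp1_1* had 90.7 CPM at 16 hpf and 1.35 at 12 hpf, a ratio of 67 (35.6 to 139). Both genes were far above their 12 hpf level again at 20 hpf, where *tsp1_1* stood at 216 CPM. *astacin4*, a gene of the astacin family of secreted zinc proteases, had 368 CPM at 16 hpf and 6.40 at 12 hpf, a ratio of 57.5 (42.9 to 78.6) summed over 2 features. *npnt*, named for nephronectin, an extracellular matrix protein that binds integrins in vertebrates, had 149 CPM at 16 hpf and 9.11 at 12 hpf. *blnk*, whose vertebrate namesake is an adaptor of B cell receptor signalling, had 44.8 CPM at 16 hpf and 2.59 at 12 hpf. The other named features of the 12 were *prdm14_1*, *wnt9*, *grp94* and an immune effector gene, described further on, and 3 genes named only as hypothetical proteins. Of these, *hypp_258* had 98.2 CPM at 16 hpf and 4.06 at 12 hpf, *hypp_2638* had 80.1 and 4.68 CPM, and the chosen feature of *hypp_53* had 90.7 and 2.09 CPM.

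Some of the genes that gained most were detected mainly in mesodermal cells. Cells with UMIs of at least 2 of *scl*, *gataC*, *ese*, *astacin4* and the immune effector gene HER_22243.t1 were taken as a mesoderm gate, chosen after the values were seen, and cells with UMIs of at least 2 of *hbn*, *six3*, *foxQ2_1* and *fzd5/8* as an animal pole gate. The mesoderm gate held 75 of the 486 cells at 16 hpf (15.4%) and the animal pole gate 131 (27.0%), with 6 cells in both and medians of 2367 and 1955 UMIs. Each cell was then thinned to 500 UMIs to set shares side by side at 1 depth. At 16 hpf, *npnt* was detected in 28.2% of the mesoderm gate (18.1 to 40.1) and in none of 130 cells of the animal pole gate, which allows a share of up to 2.80%. *tsp1_1* was detected in 18.3% of the mesoderm gate and 0.769% of the animal pole gate. *mmp18/19L5*, a matrix metalloprotease gene, was detected in 46.5% of the mesoderm gate and 1.54% of the animal pole gate, and its summed level was 347 CPM at 16 hpf and 36.4 at 12 hpf. The reverse held for *dr_1*, detected in 13.1% of the animal pole gate and in none of 71 cells of the mesoderm gate, which allows a share of up to 5.06% (Clopper-Pearson). It was not confined to the animal pole gate, which held 17 of the 43 thinned cells with *dr_1*. Its share of all thinned cells was 9.53%.

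**Figure D2:**
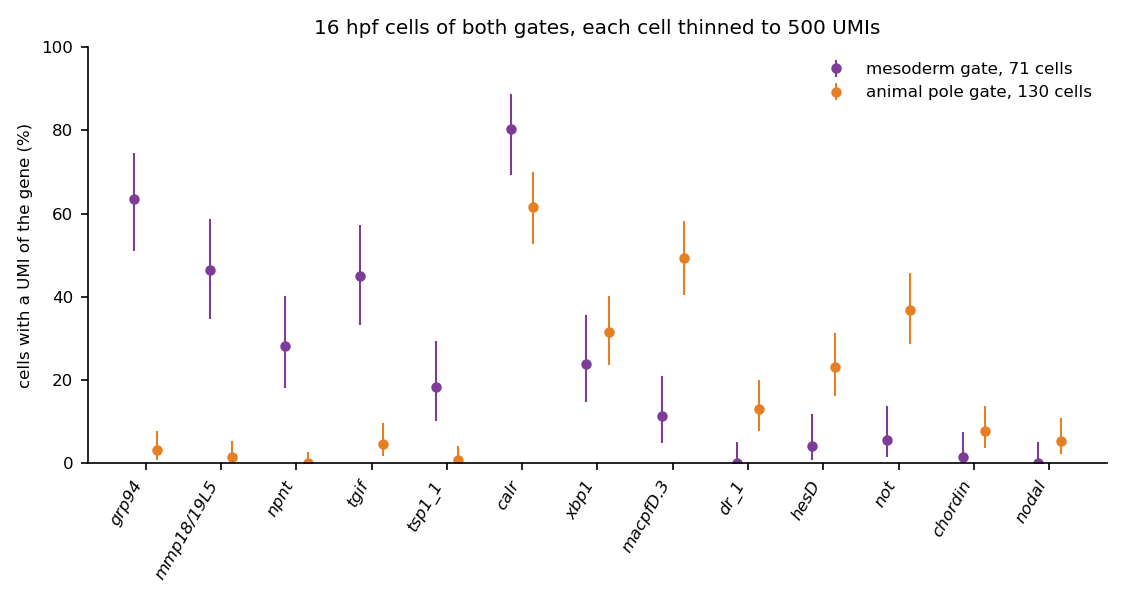
Share of cells with a UMI at 16 hpf, in cells thinned to 500 UMIs, in the mesoderm gate and in the animal pole gate. Bars are exact 95% Clopper-Pearson intervals. *grp94*, *mmp18/19L5* and *npnt* were detected mostly in the mesoderm gate, and *calr* and *xbp1* in both. *dr_1* and *macpfD.3* had a larger share in the animal pole gate than in the mesoderm gate.

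The immune effector gene of this group was detected in 8.85% of cells at full depth at 16 hpf, between 1.4% at 12 hpf and 12.9% at 20 hpf. HER_22243.t1 and the features that share its name belong to a sea urchin family of secreted immune effectors made by coelomic cells, and these 5 features summed to 8.62, 222 and 1175 CPM at 12, 16 and 20 hpf. The ratio of 16 over 12 hpf was 25.8 (19.6 to 34.3). At 9 hpf it stood at 40.2 CPM, above both 6 and 12 hpf, a value that was not traced further. Of 54 cells with *astacin4* at 16 hpf, 30 also carried this effector and 38 (70.4%) carried *scl*, the blood and mesoderm regulator, which 19.5% of all 486 cells carried. At 12 hpf, 25 of 40 cells with *astacin4* carried *scl*. Only 2 of the 54 carried *dr_1*. Among 85 compared features of innate immune genes, 21 were at least 2-fold higher (24.7%, against 13.8% of all features) and 9 lower (10.6%, against 10.9%), with a median log2 ratio of 0.59 against 0.08 over all features. *srcr142*, a scavenger receptor gene, had 174 CPM at 16 hpf and 44.2 at 12 hpf.

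Of 6 compared features of early mesoderm markers, 3 were lower (50%, against 10.9% of all features) and none was higher. Of 13 features of mesoderm regulators, 5 were lower (38.5%, against 10.9%) and 1 was higher (7.69%, against 13.8%). Of the 3 compared features of blastocoelar markers, 2 were higher (66.7%, against 13.8% of all features). These were from *astacin4* and the immune effector gene, and the third, *scl*, was lower by less than 2-fold. *scl*, which counts as a marker of both, was 3554, 2609 and 1135 CPM at 12, 16 and 20 hpf, and its ratio of 16 over 12 hpf was 0.73 (0.704 to 0.765). *gataC*, which encodes a zinc finger factor of the same lineage, was 452, 146 and 53.4 CPM. *ese*, an Ets factor, was 340, 341 and 113 CPM. The share of thinned cells with *scl* was 14.9% (11.7 to 18.5) at 16 hpf and 16.3% (15.2 to 17.4) at 12 hpf, so no difference was detectable at this depth, whereas the share with *gataC* was 5.76% (3.80 to 8.33) at 16 hpf and 11.2% (10.3 to 12.2) at 12 hpf. *tbr*, a T-box gene that serves the larval skeleton in feeding species, was 4.27 CPM at 16 hpf, from only 4 UMIs, and 57.7 CPM at 12 hpf. *snail*, a zinc finger regulator of mesoderm, had 1 UMI at 16 hpf and 83 at 12 hpf. *foxN2/3*, a forkhead gene of early mesoderm and endoderm, was 378, 91.8 and 99.6 CPM at 12, 16 and 20 hpf. The pigment cell marker *pks1*, which encodes the polyketide synthase of pigment synthesis, was 86.4, 110 and 167 CPM, and its direction changed with the scaling. *mif4*, another pigment marker, was 1182, 2130 and 2707 CPM and was detected in 9.98% of thinned cells at 16 hpf and 10.2% at 12 hpf, and at full depth in 16.3% and 13.2%. None of the 7 features of the skeletal markers *alx1*, *msp130r2*, *sm50* and *sm37* reached 50 UMIs.

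Genes of protein folding and transport in the endoplasmic reticulum were higher at 16 hpf. *calr*, calreticulin, a calcium-binding chaperone of this compartment, was 246, 2746 and 4709 CPM at 12, 16 and 20 hpf, with a ratio of 16 over 12 hpf of 11.2 (10.5 to 11.8). It was detected in 10.5%, 63.0% and 77.6% of thinned cells at these times, and in 28.4%, 85.8% and 91.4% of cells at full depth. *xbp1*, a transcription factor of the unfolded protein response, was 95.9, 648 and 829 CPM and was detected in 4.34%, 27.1% and 31.6% of thinned cells. Of 286 cells with *xbp1* at 16 hpf, before thinning, 268 carried *calr*. *hyou1*, an HSP70-like chaperone, was 27.6, 124 and 101 CPM. The channel subunits *sec61a2* and *sec61b_1* were 1.96-fold and 2.89-fold higher at 16 than at 12 hpf, and *ssr1*, of the translocon-associated complex, was 2.11-fold higher. Of 46 compared features of a list of such genes, put together after these values were seen, 17 were at least 2-fold higher (37.0%, against 13.8% of all features) and 1 was lower (2.17%, against 10.9%), and the median log2 ratio was 0.76, between 0.41 and 0.85 under the scalings tried. The lower one was *sel1L*, which acts in the removal of misfolded proteins, with 110 CPM at 16 hpf and 228 at 12 hpf.

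*calr* and *grp94* differed in where they were found. *grp94*, the HSP90-type chaperone of the same compartment, was 56.8, 565 and 709 CPM at 12, 16 and 20 hpf over 6 features, a ratio of 16 over 12 hpf of 9.95 (8.76 to 11.3). At 16 hpf it was detected in 63.4% of the mesoderm gate (51.1 to 74.5) and 3.08% of the animal pole gate, and at 20 hpf in 66.2% and 2.51%. At 12 hpf it was detected in 6.87% of the mesoderm gate and 1.21% of the animal pole gate. *calr* was detected in 80.3% of the mesoderm gate and 61.5% of the animal pole gate at 16 hpf, and *xbp1* in 23.9% and 31.5%. The genes that define the mesoderm gate change between these times themselves, so the gate need not hold the same cells at each time.

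Cytosolic ribosomal protein genes were higher at 16 hpf as a group. Of 66 compared features, 39 were at least 2-fold higher (59.1%, against 13.8% of all features) and 1 was lower (1.52%, against 10.9%), the median log2 ratio was 1.09, and it lay between 0.73 and 1.09 under the scalings tried. Their summed level was 26421, 56332 and 73542 CPM at 12, 16 and 20 hpf. *rpl37a*, the most abundant, was 3305, 5642 and 7755 CPM. The steepest were less abundant: *rpl7a* was 29.2, 176 and 119 CPM, and *rps15a*, from 2 features, was 117, 650 and 416 CPM. Of 40 features of translation factors, 10 were higher (25%, against 13.8% of all features), 1 was lower (2.5%, against 10.9%) and 29 stayed within 2-fold, with a median of 0.43. *eif2beta*, of the complex that brings the initiator tRNA, was 847, 2484 and 3451 CPM and was detected in 34.9%, 70.5% and 79.8% of thinned cells. *eif5B*, which joins the ribosomal subunits, was 118, 459 and 598 CPM, and *eif5A* was 173, 585 and 412 CPM. The only lower factor was *eif4e2*, whose mammalian namesake is a cap-binding protein that represses translation, with 13.9 CPM at 16 hpf and 38.8 at 12 hpf. For comparison, splicing factors had a median of -0.05, with 3 of 42 features higher (7.14%) and 2 lower (4.76%).

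**Figure D3:**
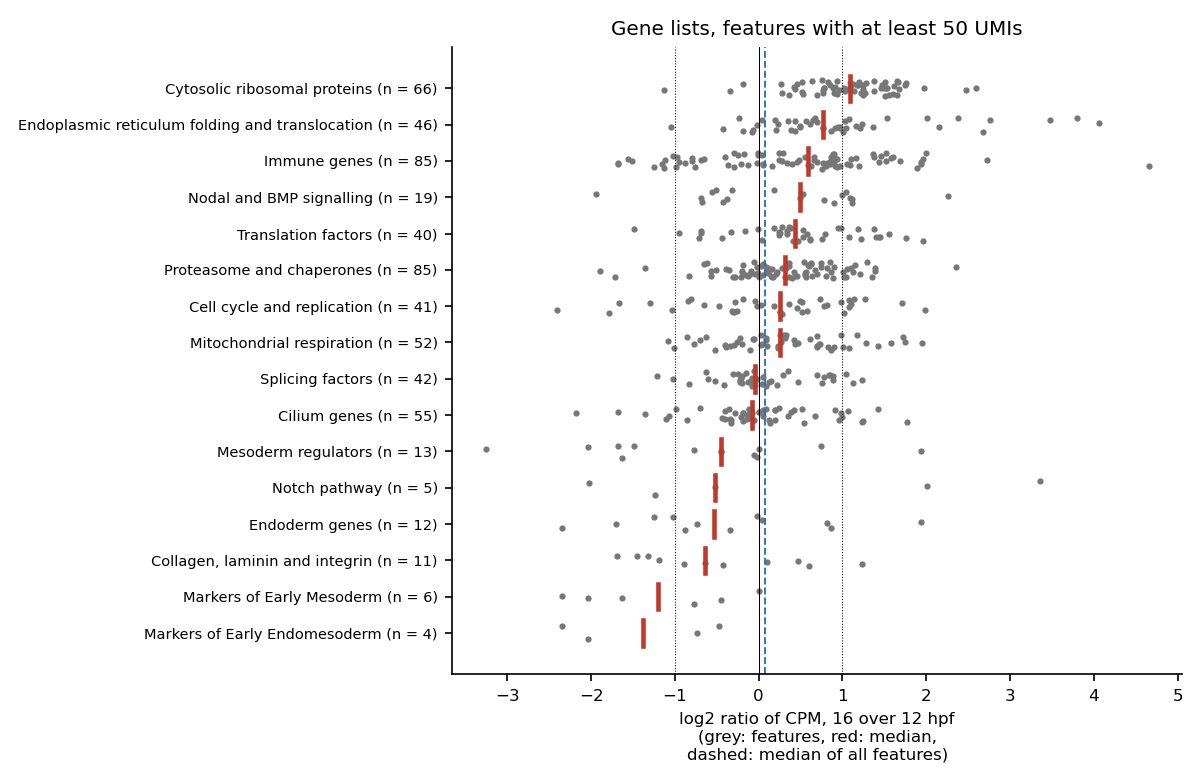
For each gene list, dots are the log2 ratios of 16 over 12 hpf of its compared features and the bar is their median, with the median over all 9401 features (0.08) as a dashed line. The ribosomal protein list has its median at 1.09 and the cilium list at -0.09.

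Markers of late ectodermal territories differed in their course. Both compared features of posterior ectoderm markers (100%) and 1 of 2 of left ectoderm markers (50%) were at least 2-fold higher at 16 hpf. So were 1 of 5 of putative (20%) and 1 of 4 of verified rudiment ectoderm markers (25%), against 13.8% of all features. None in these lists was at least 2-fold lower, against 10.9% of all features. The markers *dlx*, *msx* and *lox* did not reach 50 UMIs and are not counted. Their log2 ratios of 16 over 12 hpf were 5.16, 5.34 and 3.92, so these counts leave out strong gains. *egfi*, a verified rudiment marker, was 2847, 2370 and 1470 CPM at 12, 16 and 20 hpf and was already detected in 74.9% of thinned cells at 12 hpf. *hox7*, a Hox gene of the posterior ectoderm, was 4.56, 54.4 and 211 CPM at 12, 16 and 20 hpf, with a ratio of 16 over 12 hpf of 12.0 (7.67 to 18.8) from 51 and 37 UMIs at 16 and 12 hpf. It was detected in 30 of 486 cells at 16 hpf. At 9 hpf it stood at 33.5 CPM, so its course before 12 hpf was not a steady one. *wntA*, a Wnt ligand and also a marker of posterior ectoderm, was 5.17, 67.3 and 76.5 CPM. Of the 30 cells with *hox7*, 8 also carried *wntA*, which 9.26% of all cells carried. *lox*, the ParaHox gene of the posterior gut in other sea urchins, rested on 14 UMIs at 16 hpf and 8 at 12 hpf, and *msx*, a homeobox gene, on 14 and 3. The study designed 16 pairs of probes against *hox7* for in situ hybridization, and the first pair is shown because it gives transcript sequence of the gene that these UMIs count. Each probe pairs with the transcript through the 25 bases in capitals, and the lower case bases carry the hairpin initiator.
hox7 probe 1 of the pair: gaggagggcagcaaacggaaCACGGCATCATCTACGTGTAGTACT
hox7 probe 2 of the pair: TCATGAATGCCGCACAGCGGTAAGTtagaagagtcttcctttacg
Another of its probes lies on the homeobox, the stretch that encodes the DNA-binding domain, and reads on the transcript side as follows.
hox7 transcript, homeobox: GTTCCAGAACAGACGGATGAAGTAT

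Several other regional regulators were higher as well, while *lim1*, a homeobox gene, was 316 CPM at 16 hpf and 492 at 12 hpf, and *emx* and *hmx* are given further on. *prdm14_1*, a PR-domain zinc finger gene and a marker of left ectoderm, was 1.48, 65.1 and 491 CPM at 12, 16 and 20 hpf. Its ratio of 16 over 12 hpf was 44.1 (23.5 to 89.9), and it was far higher again at 20 hpf. *dlx*, a homeobox gene of left and rudiment ectoderm, was 1.11, 39.5 and 90.05 CPM. At 16 hpf, 1 of the 29 cells with *prdm14_1* carried *dlx*, which 5.14% of all cells carried. *meis*, a partner of Hox proteins, was 3.69, 61.9 and 96.3 CPM. *nkx2-2* was 6.28, 63.0 and 105 CPM and *arx* was 2.83, 34.2 and 40.2 CPM, both homeobox genes of neural patterning in vertebrates. Among anterior genes, *isl* was 6.53, 44.8 and 46.3 CPM and *rax* was 15.5, 56.6 and 69.8 CPM. *irxA*, an Iroquois gene, was 11.8, 54.4 and 158 CPM. *foxY*, a forkhead gene, had 34 UMIs at 16 hpf and 3 at 12 hpf, and its level was 36.3, 24.6 and 0.268 CPM at 16, 20 and 30 hpf.

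**Figure D4:**
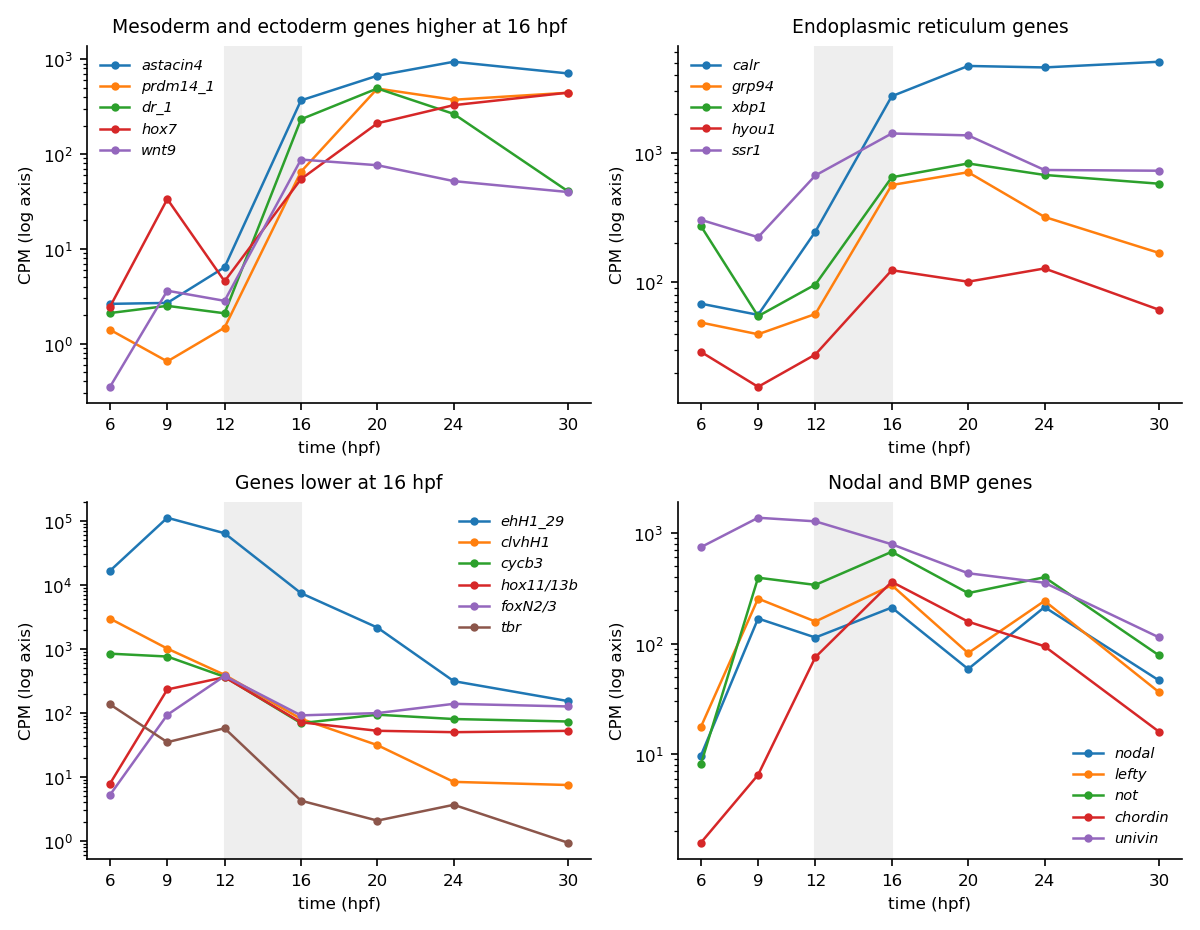
CPM of single genes in the 7 libraries against time in hpf, on a log axis, with the span from 12 to 16 hpf shaded. *hox7*, *astacin4* and *calr* were higher at 16 than at 12 hpf and higher again at 20 hpf, *nodal* and *chordin* were higher at 16 than at both 12 and 20 hpf, and *ehH1_29* was lower at each time after 9 hpf.

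Some genes of the Nodal territory were higher at 16 hpf than at both 12 and 20 hpf. *chordin*, the BMP antagonist, was 75.2, 361 and 158 CPM at 12, 16 and 20 hpf, a ratio of 16 over 12 hpf of 4.80 (4.19 to 5.49), after 1.58 and 6.50 CPM at 6 and 9 hpf. *nodal*, the ligand that sets up the oral side, was 113, 211 and 58.8 CPM, and *lefty*, its inhibitor, was 158, 336 and 81.9 CPM. *not*, a homeobox target of Nodal in sea urchins, was 339, 675 and 286 CPM. These 3 did not follow a single rise and fall, since *nodal* was 168 CPM at 9 hpf and 213 CPM at 24 hpf, *lefty* was 255 and 243 CPM, and *not* was 394 and 397 CPM. *nodal* was detected in 8.87% of thinned cells at 16 hpf (6.41 to 11.9) and 4.93% at 12 hpf (4.32 to 5.60), and at full depth in 22.2% and 11.9%. *gsc*, a homeobox gene of the oral side, did not share this course, with 70.1, 98.2 and 110 CPM and shares of 3.23%, 3.55% and 5.10% of thinned cells at 12, 16 and 20 hpf. Of 108 cells with *nodal* at 16 hpf, 70 carried *chordin*, 72 *lefty* and 89 *not*, against 22.6%, 26.7% and 48.4% of all cells. *bmp2/4* was 3.01-fold higher at 16 than at 12 hpf, from only 17 UMIs. In contrast *univin*, another TGF-beta ligand, was 1272, 789 and 432 CPM. Of 19 compared features of Nodal and BMP genes, 5 were higher (26.3%, against 13.8% of all features), 1 was lower (5.26%, against 10.9%) and 13 stayed within 2-fold.

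Wnt genes went in both directions. *wnt9* was 2.83, 87.5 and 76.3 CPM at 12, 16 and 20 hpf, a ratio of 16 over 12 hpf of 30.9 (19.3 to 51.5), and its 82 UMIs at 16 hpf came from 27 cells. *wnt16* was 18, 3.20 and 4.59 CPM, and *wnt7* was 161, 149 and 166 CPM. Of 8 compared features of Wnt ligands, 2 were higher (25%, against 13.8% of all features) and 1 lower (12.5%, against 10.9%). Of 16 features of Wnt receptors and modulators, 3 were higher (18.8%, against 13.8%) and 2 lower (12.5%, against 10.9%). *axin*, a scaffold of the complex that destroys beta-catenin, was 197, 58.7 and 64.4 CPM, and *znrf3*, which in vertebrates removes Frizzled receptors from the membrane, was 935, 208 and 172 CPM. Both of these inhibitors of Wnt signalling had the whole interval of their ratio below a 2-fold loss. In the Notch pathway, 2 of 5 compared features were higher (40%, against 13.8% of all features) and 2 lower (40%, against 10.9%). *hesA* was 24.0, 246 and 389 CPM and *hesD* was 115, 459 and 253 CPM, both encoding repressors of the hairy and enhancer of split kind, which Notch switches on in many tissues. The ligand *delta* was 47.8, 11.7 and 14.0 CPM and the nuclear effector *suH* was 62.9, 26.7 and 29 CPM. *fgf* was 5.54, 43.8 and 56.3 CPM.

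The most abundant gene to fall was an early histone. *ehH1_29*, an early histone H1, was 64245, 7448 and 2160 CPM at 12, 16 and 20 hpf, a ratio of 16 over 12 hpf of 0.116 (0.113 to 0.119), after 112152 CPM at 9 hpf. It was detected in 99.9%, 74.7% and 37.0% of thinned cells. When the 20 most abundant features were left out of the totals, the median ratio over all features moved by -0.07. The cleavage histone *clvhH1* was 394, 81.1 and 31.5 CPM, *ehH2b_94* was 848, 205 and 149 CPM and *ehH2a_67* was 965, 366 and 341 CPM. Of 20 compared features of early and cleavage histones, listed after their values were seen, 7 were lower (35%, against 10.9% of all features) and 6 higher (30%, against 13.8%), and the median log2 ratio was 0.20, with a sign that changed with the scaling. Their summed level was 68431, 9543 and 4227 CPM, most of it at 12 hpf from *ehH1_29* alone. *ehH4_79*, one of the higher ones, had 63.0 CPM at 16 hpf and 17.0 at 12 hpf. The variant *hH2az*, which is made outside replication, was 29012, 26911 and 29431 CPM.

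Some other genes, among them a marker of early ectoderm, went down as well. *yp303*, a yolk protein-type gene with 16 features, was 8639, 4053 and 1805 CPM at 12, 16 and 20 hpf, and *guan/cyc*, named as a guanylate cyclase, was 98.7, 19.2 and 6.67 CPM. Of 21 compared features of early ectoderm markers, 7 were lower (33.3%, against 10.9% of all features) and 2 higher (9.52%, against 13.8%). At 20 hpf 15 were lower than at 12 hpf (71.4%, against 12.8%) and 2 higher (9.52%, against 15%). This list has 24 features, of which 16 are those of *yp303*, so the counts mostly follow that gene. Its other genes did not share the fall at 16 hpf. The log2 ratio of 16 over 12 hpf was 1.07 for *ccnr2*, 0.30 for *el1L4* and -0.11 for *c8orf48L*. The value for *ccnr2* rests on few cells. It was detected in 4 of 451 thinned cells at 16 hpf (0.887%) and 60 of 4582 at 12 hpf (1.31%). *cycB3*, a B-type cyclin, was 367, 69.4 and 94 CPM and was detected in 17.4%, 3.55% and 3.97% of thinned cells. Cell cycle genes had shares near the background, with 8 of 41 features higher (19.5%, against 13.8%) and 5 lower (12.2%, against 10.9%). *mcm10*, a factor of replication origins, was 20.6, 81.1 and 126 CPM, while *rrm2_1*, a subunit of the enzyme that makes deoxynucleotides, was 140, 45.9 and 42.9 CPM.

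Of 12 compared features of endoderm genes, 4 were lower (33.3%, against 10.9% of all features), 1 was higher (8.33%, against 13.8%) and 7 stayed within 2-fold. Of 4 features of early endomesoderm markers, 2 were lower (50%, against 10.9%). *hox11/13b*, a posterior Hox gene that patterns the hindgut in feeding species, was 362, 71.5 and 52.7 CPM at 12, 16 and 20 hpf, a ratio of 16 over 12 hpf of 0.197 (0.153 to 0.251). It was detected in 2.82% of the mesoderm gate at 16 hpf and 31.9% at 12 hpf. *foxA*, a forkhead gene of the gut, was 542, 327 and 256 CPM, and *krl*, a zinc finger repressor of early endomesoderm, was 96.4, 31.0 and 2.50 CPM. *endo16*, a secreted protein of the gut, went the other way with 91.9, 167 and 157 CPM. *tgif*, a homeobox gene of endoderm and mesoderm, was 123, 471 and 769 CPM and was detected in 45.1% of the mesoderm gate and 4.62% of the animal pole gate at 16 hpf. The 12 named features with the lowest upper bound of the ratio also included *phd1* at 190, 25.6 and 16.5 CPM, *arh/ldl* at 169, 28.8 and 15.8 CPM and *rassf2* at 301, 59.8 and 70.0 CPM. The remaining 3 were *hypp_2098*, with 1 UMI at 16 hpf and 344 at 12 hpf, a feature of *pppL_120*, with 6 UMIs at 16 hpf and 269 at 12 hpf, and a feature of *clect/pan_6*, with 0 UMIs at 16 hpf and 132 at 12 hpf.

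Several animal and ciliary genes stayed close to their 12 hpf level. *onecut*, a marker of the ciliary band, was 180, 163 and 192 CPM at 12, 16 and 20 hpf, a ratio of 16 over 12 hpf of 0.91 (0.762 to 1.07), and was detected in 8.31%, 7.76% and 7.53% of thinned cells. Its first pair of probes, of 26 designed, is set beside the pair for *hox7* as that of a gene whose level held.
onecut probe 1 of the pair: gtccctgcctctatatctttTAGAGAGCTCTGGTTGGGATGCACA
onecut probe 2 of the pair: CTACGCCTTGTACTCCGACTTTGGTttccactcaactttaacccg
*hmx*, a homeobox gene, was 287, 258 and 282 CPM. *emx*, another homeobox gene, was lower with 194, 44.8 and 81.3 CPM, and at 12 hpf it was detected in 8.52% of the animal pole gate and 1.17% of the mesoderm gate. The animal pole genes *foxQ2_1*, *fzd5/8* and *six3* had ratios of 0.97, 1.12 and 1.32, and *hbn* had a ratio of 0.65 (0.601 to 0.707). The direction for *foxQ2_1* and *fzd5/8* changed with the scaling. Of 55 compared features of cilium genes, 5 were higher (9.09%, against 13.8% of all features) and 5 lower (9.09%, against 10.9%), with a median of -0.09, and *tektin2*, of the axoneme, was 382, 149 and 129 CPM. *macpfD.3*, of the perforin-like family, was higher, like *dr_1*, with 609, 2302 and 3170 CPM. At 16 hpf it was detected in 49.2% of the animal pole gate, 11.3% of the mesoderm gate and 41.0% of all thinned cells.

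**Figure D5:**
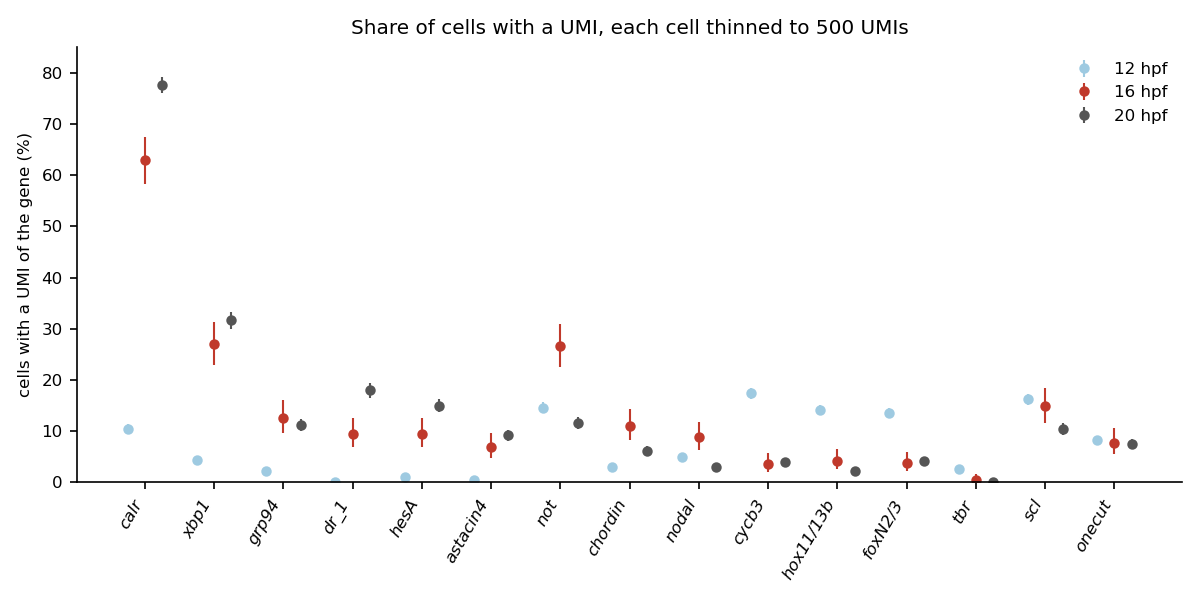
Share of cells with a UMI at 12, 16 and 20 hpf, each cell thinned to 500 UMIs, with exact 95% intervals from 4582, 451 and 2923 cells. *calr* was detected in 63.0% of cells at 16 hpf and *cycB3* in 3.55%, while *scl* and *onecut* differed by less than their intervals between 12 and 16 hpf.

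A smaller number of features stood out at 16 hpf alone. Relative to both 12 and 20 hpf, 122 features (1.3%) were at least 2-fold higher at 16 hpf and 178 (1.89%) at least 2-fold lower. Both ratios use the small 16 hpf library, so an odd value there would enter both. These counts use no interval, and 1598 of the compared features had fewer than 10 UMIs at 16 hpf. *ski*, a co-repressor of TGF-beta signalling, was 382, 711 and 198 CPM at 12, 16 and 20 hpf and was detected in 15.2%, 26.6% and 8.65% of thinned cells. *naalad2_1* was 14.3, 68.3 and 21.3 CPM and *hypp_2441* was 24.9, 207 and 49.0 CPM. The feature HER_16128.t1, which has no name in the files and was picked after its values were seen, was 206, 3379 and 1492 CPM, and was detected in 34.8% of thinned cells at 16 hpf and 3.36% at 12 hpf. Its UMIs were uneven, with up to 207 in 1 cell at 16 hpf. At the low end, *hypp_191* was 61.4, 10.7 and 64.4 CPM. *btbd9* and *rmnd1h* had no UMI at 16 hpf, against 75 and 61 UMIs at 12 hpf. With 3 counts set for 16 hpf, a set value and not a bound, they were 2.88-fold and 2.35-fold lower there.

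The features that gained at 16 hpf were followed over all 7 libraries. Of the 434 with the whole interval above 2-fold, 52 were also at least 2-fold above the 12 hpf level at 9 hpf, and 323 (74.4%) were at 24 hpf and 302 (69.6%) at 30 hpf. Their median level was 17.2, 81.1 and 77.0 CPM at 12, 16 and 20 hpf, and 170 of them were highest at 16 hpf among the 7 libraries. Of the 205 that lost, 186 (90.7%) were still at least 2-fold below 12 hpf at 24 hpf, and their median level was 149, 42.7 and 34.2 CPM. Their highest level was at 9 hpf for 78 and at 12 hpf for another 78. The features were chosen for their 16 hpf value, which makes a highest level at that time more likely. They were chosen against the 12 hpf level and set against it again, so an odd value at 12 hpf would enter every count. The matching shares of all features at 9, 24 and 30 hpf were not computed, so these counts have no background.

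For features with enough UMIs at 12 and 16 hpf, much of the distance between 12 and 20 hpf was already covered at 16 hpf. Among the 579 features with at least 200 UMIs that were at least 2-fold higher at 20 than at 12 hpf, the median feature had made 78.8% of its log2 change by 16 hpf (quartiles 64.6 and 94.4), and 105 had gone past all of it. Among the 818 that were at least 2-fold lower, the median was 70.6% (quartiles 51.5 and 89.9), and 127 had gone past all of it. These shares also use the 12 hpf library on both sides. The minimum of 200 UMIs was counted over the 12 and 16 hpf libraries together. A feature nearly silent at 12 hpf was therefore included only if it was already high at 16 hpf. Features that rise mainly after 16 hpf are missed, which raises the share among the higher features.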

How the data were processed

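The 7 single-cell libraries of *He*, 1 per time point, were read. The authors deposited raw counts (UMIs) of 38707 features per barcode from Cell Ranger 3.1.0, without normalization. The submitters' processing notes also list Seurat 4.0. The genome build is not given in the sources used here. Gene names follow the files. A named gene is the sum of its features, while lists and calls count each feature on its own. Such features may be close copies among which reads can be split.

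Sums and intervals were computed in Python 3.11.15 with numpy 2.4.6, pandas 2.3.3 and scipy 1.17.1, and figures were drawn with matplotlib 3.10.9. Cells were filtered and UMIs summed as stated above. Ratios of CPM have exact conditional intervals, levels Poisson intervals and shares Clopper-Pearson intervals, all for counting error only. A library at 0 was set to 3 counts. No doublets were removed. Shares were computed after thinning each cell to 500 UMIs, which kept 451 of 486 cells of the 16 hpf library, 4582 of the 12 hpf library and 2923 of the 20 hpf library. The ratio step was tested on simulated data. No model was fitted and no p-value is given.

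Genes named are the 12 named features with the highest lower bound and the 12 with the lowest upper bound of the 16 over 12 hpf ratio, the 5 each way past both 12 and 20 hpf, the cell type markers of the study, and up to 5 members of each list. Others were named after their values were seen: *hyou1*, *xbp1*, *ssr1*, *sec61a2*, *sec61b_1*, *lefty*, *not*, *ehH2a_67*, *ehH2b_94*, *hmx*, *arx*, *nkx2-2*, *meis*, *eif5A*, *macpfD.3*, *rax*, *emx*, *lim1*, *tektin2* and HER_16128.t1. Members and lists were chosen with earlier results of these data known. Probe sequences come from the study's probe table. Alternatives were other scalings (TMM from edgeR 4.0.16 in R 4.3.3), filters on cells and features, fold limits, 5 CPM added and thinned sums.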

Additional observations from a re-analysis of the deposited data

How the results depend on the processing

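No paired analysis was possible because each time point has 1 library. For the same reason no library could be left out. The 1297 features at least 2-fold higher at 16 than at 12 hpf became 644 with median-of-ratios factors, 689 with TMM, 611 with the 12 and 20 hpf sums thinned to the 16 hpf total, 815 with 5 CPM added, 482 with at least 200 UMIs, 753 with a mean of at least 20 CPM, 2566 at 1.5-fold, 171 at 4-fold and 434 with the whole interval past 2-fold. With no filter on features, 10045 of 21843 were higher, since 1 UMI at 16 hpf, or the 3 counts set for none, is a high CPM in that small library. The 1028 lower features became 1861, 1777, 499, 630, 600, 544, 2037, 164 and 205 under the first 9 of these settings. Those also higher at 20 hpf, 868, became 445, 478, 465, 546, 354, 553, 1852, 116 and 382 under the same 9, and 5242 with no filter on features. Those also lower at 20 hpf, 662, became 1219 with median-of-ratios factors, 1154 with TMM, 399 with thinned sums, 431 with 5 CPM added, 425 with a mean of at least 20 CPM, 1455 at 1.5-fold, 80 at 4-fold and 192 with the whole interval. Fewer features are compared after thinning, with a higher UMI minimum or with a mean of 20 CPM. The counts stayed within 1.5 times without the 20 most abundant features in the totals, with means over cells, with no filter on cells, with over 500 genes per cell, without cells over 2 times the median UMIs, with features of a name summed, and with factors over the features with at least 50 UMIs, the last chosen after seeing the data. No named gene that differed at least 2-fold changed direction, counting those above 3 counts of the 16 hpf library in either library. Other scaling factors move every log2 ratio by the same amount, -0.36 at the most, so they could not have reversed these genes. Means over cells, filters on cells and thinned sums can move genes singly. Medians near 0 changed sign with the scaling for 17 lists, among them those of Wnt ligands, Sox, cell cycle, mitochondrial and proteasome genes. Counting each list under each setting as a case, list medians moved beyond 1.5 times in 10 cases. Of these, 5 were with thinned sums, 4 with 5 CPM added and 1 with means over cells. The shares of cells depend on the thinning by construction: of 687 shares, 639 left their interval without thinning and 539 when cells were thinned to 1000 UMIs. Of the 122 genes whose shares at 16 and 12 hpf had intervals that did not overlap at 500 UMIs, all 122 had the same direction at 1000 UMIs and 121 without thinning, the exception being *soxB1*. Depth limits all values under about 10 UMIs at 16 hpf, such as those of *tbr*, *snail*, *wnt16* and *hypp_2098*.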
